A study of Mus musculus with 2 samples.

Results

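The H19 and Igf2 imprinted domain was defined as the 3 genes H19, Igf2 and Ins2 of mouse chromosome 7 with 100 kb on each side, chr7:149661434-149985415 in mm9, a stretch of 324 kb. The 3 members are of 37273 genes in the GENCODE M1 annotation, and 8 of the 33788 deposited CTCF peaks have their summit in the domain. H19 (chr7:149761434-149764048), Igf2 (chr7:149836673-149852721) and Ins2 (chr7:149864561-149885415) are all transcribed from the minus strand, so upstream of H19 is the side of Igf2. Binding of CTCF was read by chromatin immunoprecipitation and sequencing (ChIP-seq) in R1/E cells, a mouse embryonic stem cell (ESC) line that carried a stably integrated bacterial artificial chromosome with CTCF fused at its C-terminus to a GFP-containing tag. Both libraries came from this line under LIF-containing medium, 1 made with a goat antibody against eGFP (CTCF-GFP) and 1 with a goat IgG isotype control, which the labels also call input DNA. The line keeps its untagged CTCF, so the antibody reported the tagged protein only. The libraries held 8391191 CTCF-GFP and 7988889 IgG tags of 35 bp. There was 1 library per antibody and no replicate, so each test below compares 2 libraries by their tags, and each interval is an exact 95% interval that covers counting error only. The tags carry no allele, and the maternal and paternal chromosomes cannot be told apart.

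Imprinted genes are expressed from the copy inherited from 1 parent. H19, a long non-coding RNA, is expressed from the maternal chromosome, and Igf2, the gene for a fetal growth factor, from the paternal one. Between them lies the imprinting control region, upstream of H19, which is methylated on the paternal chromosome. CTCF, a zinc finger protein that acts as an insulator, binds the unmethylated maternal copy and keeps Igf2 from the enhancers on the far side of H19. Ins2, which codes for insulin, lies next to Igf2.

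No deposited CTCF peak lay in the control region, taken here as the bases from 2 to 4.5 kb upstream of the H19 start (chr7:149766048-149768548, outside any annotated gene). The region nevertheless held more CTCF-GFP than IgG tags. The 8 peaks lay elsewhere, with 2 beyond the H19 side, 1 between H19 and Igf2, 2 between Igf2 and Ins2 and 3 beyond Ins2. The letters at the CTCF motifs are given first, to show which sites share a sequence and which way each points. Each line shows the 19-base motif match in capitals with 20 bases on either side, 5′ to 3′ on the strand of the match, read from the mm9 genome.

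The control region held 5 motif matches at p of up to 1e-04 and 0 at the stricter 1e-05 used elsewhere. The whole domain of 324 kb held 301 matches at p of up to 1e-04. The 5 matches of the control region are named by the distance of their centre upstream of the H19 start. All 5 were on the minus strand, which is also the strand of H19:

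match 2173 bp upstream: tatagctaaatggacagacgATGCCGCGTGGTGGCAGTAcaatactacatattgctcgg
match 2628 bp upstream: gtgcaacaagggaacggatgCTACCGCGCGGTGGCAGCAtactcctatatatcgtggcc
match 3654 bp upstream: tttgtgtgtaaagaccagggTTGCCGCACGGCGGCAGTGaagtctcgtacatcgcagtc
match 3774 bp upstream: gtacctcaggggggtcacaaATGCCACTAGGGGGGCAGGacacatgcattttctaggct
match 3898 bp upstream: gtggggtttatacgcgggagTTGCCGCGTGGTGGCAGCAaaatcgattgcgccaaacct

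Of these, 4 followed the same letters, CCGCNNGGNGGCAG, where N is any base. They shared 13 to 17 of 19 letters with each other and held 2 or 3 CpG dinucleotides, the bases that are methylated in mammals, inside the motif. The match at 3774 bp shared only 8 to 10 letters with the other 4 and held 0 CpG. Searched on both strands of all assembled chromosomes, the 14 letters occurred 532 times, and 0.0494% of 2500 bp stretches held them. The domain held them 4 times, each time in the control region. At 2 places in the genome, this one included, 4 or more copies fell within 2500 bp. Of all copies, 16.5% lay in a deposited peak. These letters were chosen after the matches had been seen.

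In each of the 8 peaks at least 1 match at p of up to 1e-05 was found. The share of all deposited peaks with such a match anywhere inside is not given here. The match nearest to the summit is shown, with the peaks numbered from the H19 side to the Ins2 side:

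peak 1: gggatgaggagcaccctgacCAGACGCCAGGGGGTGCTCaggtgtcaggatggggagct
peak 2: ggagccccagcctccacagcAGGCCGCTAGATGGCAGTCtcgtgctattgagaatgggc
peak 3: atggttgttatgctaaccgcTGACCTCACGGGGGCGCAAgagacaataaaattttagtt
peak 4: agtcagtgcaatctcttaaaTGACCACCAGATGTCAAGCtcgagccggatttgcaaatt
peak 5: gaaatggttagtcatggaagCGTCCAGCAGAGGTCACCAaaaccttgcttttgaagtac
peak 6: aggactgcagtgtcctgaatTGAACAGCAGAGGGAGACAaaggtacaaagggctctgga
peak 7: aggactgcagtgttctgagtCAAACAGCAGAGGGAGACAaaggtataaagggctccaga
peak 8: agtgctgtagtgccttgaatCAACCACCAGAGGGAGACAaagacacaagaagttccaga

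The motifs pointed along the plus strand in peaks 1, 2 and 3, along the minus strand in peaks 4, 5 and 6, and along the plus strand in peaks 7 and 8. None of the 8 contained the letters shared by the control region matches. Distances between summit and motif centre were 20 bp in peaks 1 and 6, 29 bp in peak 7 and 77 to 122 bp in peaks 2, 4, 5 and 8. At peak 3 the match was 167 bp away. Thus 7 of 8 summits had a match within 150 bp, where 74% of all summits did.

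**Figure D1:**
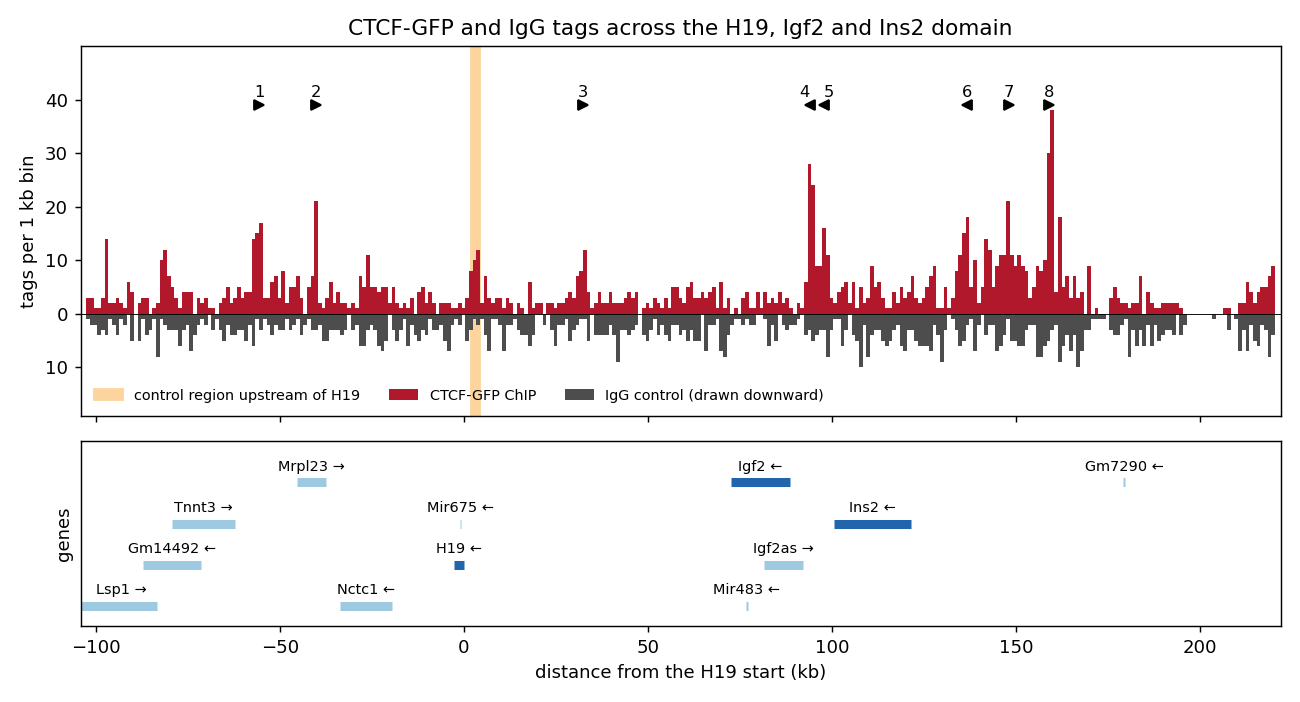
Tags per 1 kb bin of the CTCF-GFP library (upward) and the IgG library (downward) against the distance from the H19 start in kb, with the genes below (members in dark blue, arrows for the strand). Numbered arrowheads mark the 8 peaks and point along the motif nearest to the summit, and the shaded band is the control region, which has no arrowhead although CTCF-GFP tags rise there.

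The control region was examined in detail. It held 29 CTCF-GFP and 4 IgG tags in 2501 bp, or 11.6 and 1.60 tags per kb. Scaled by the library totals, the ratio was 6.90 (95% interval 2.42 to 27.0, exact binomial test, two-sided, p = 1.30e-05, unadjusted). The neighbouring 2500 bp on the H19 side, which include the H19 start, held 5 CTCF-GFP and 7 IgG tags, a ratio of 0.68 (interval 0.170 to 2.49). The next 2500 bp toward Igf2 held 10 and 8, a ratio of 1.19 (interval 0.423 to 3.47). Set against these 2 flanks together, with 15 tags of each library, the odds ratio of the control region was 7.25 (Fisher's exact test, two-sided, p = 0.00204), a comparison added after the data had been seen. The intervals of both flanks included 1, and that of the control region did not. The share of like stretches of the genome with such an excess is not given here. Other unpeaked stretches of the domain had similar counts. The 1 kb bins centred 1.89, 2.89 and 3.89 kb upstream held 8 and 3, 10 and 1, and 12 and 2 tags. Those at −82.1, −81.1 and −80.1 kb, on the other side of H19, held 10 and 1, 12 and 2, and 7 and 3. The bins were picked for their counts and not tested. Over the whole 10 kb upstream of H19 the ratio was 1.87 (interval 1.15 to 3.09), and without the control region 24 and 23 tags remained, a ratio of 0.993 (interval 0.537 to 1.84).

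The control region was split between the matches at 2628 and 3654 bp into an H19-side part (chr7:149766048-149767189) and an Igf2-side part (chr7:149767190-149768548). The motif matches at 2173 and 2628 bp fell in the first part and the other 3 in the second. On the H19 side 17 CTCF-GFP and 2 IgG tags were counted, a ratio of 8.09 (interval 1.92 to 72.2). On the Igf2 side there were 12 and 2, a ratio of 5.71 (interval 1.27 to 52.6). The difference between the 2 parts was not tested. Plus strand tags numbered 16 and minus strand tags 13 in the CTCF-GFP library, against 2 and 2 in the IgG library. On the H19 side the strands lay apart between 2000 and 2700 bp upstream, even after the move to the fragment centre. The CTCF-GFP bins of 100 bp from 2000, 2100, 2200 and 2300 bp held 2, 1, 2 and 1 plus strand tags. Only the bin from 2200 bp had a minus strand tag among them, 1. Those from 2500 and 2600 bp held 4 and 2 minus strand tags and 0 plus strand tags. Farther upstream in this part the order did not hold. The bins from 2700 and 3000 bp held 1 and 2 plus strand tags, and that from 2900 bp held 1 minus strand tag. The separation was picked from these bins and not tested.

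**Figure D2:**
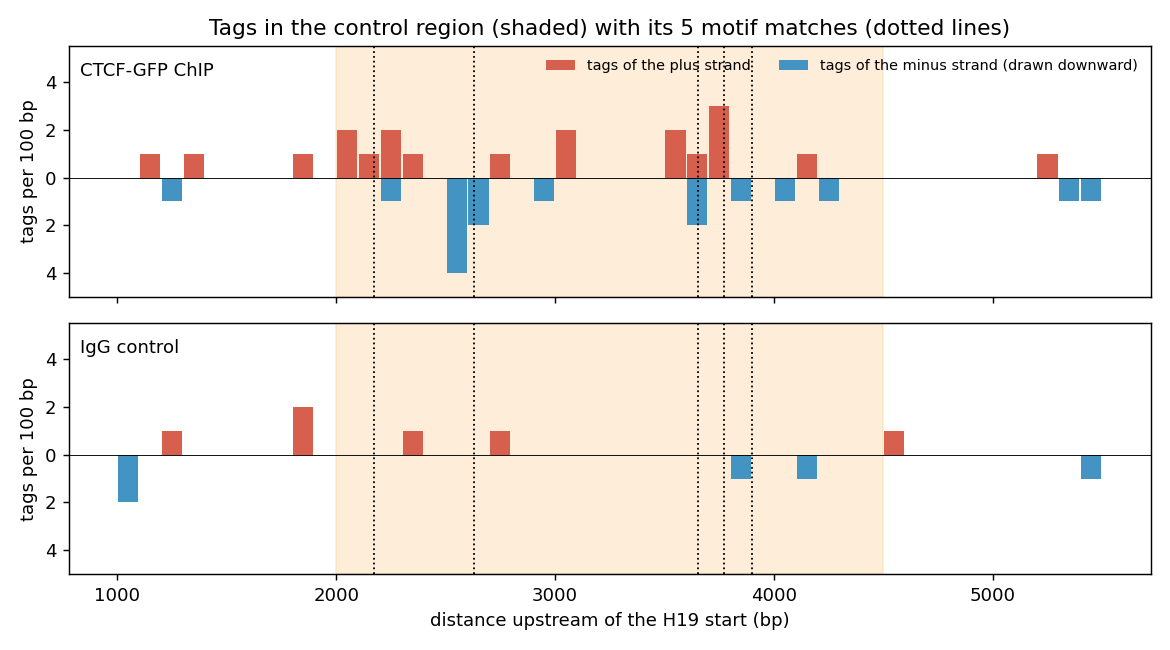
Tags per 100 bp of the plus strand (upward) and the minus strand (downward), moved to the fragment centre, against the distance upstream of the H19 start in bp, for the CTCF-GFP library (upper panel) and the IgG library (lower panel). The shading is the control region and the dotted lines are its 5 motif matches, and CTCF-GFP tags gather at 2000 to 2800 bp and at 3500 to 3900 bp.

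At the single matches, tags were counted within 150 bp of the motif centre. The match at 2173 bp had 6 CTCF-GFP tags and no IgG tag, 1.90-fold more when the IgG count is set to a floor of 3 tags. Its exact interval began at 1.12 and had no upper end. The match at 3654 bp had 8 and no IgG tag, 2.54-fold more at this floor, with an exact interval that began at 1.63. At 2628 bp the counts were 7 and 1, a ratio of 6.66 (interval 0.856 to 300.4). The match at 3774 bp had 5 and 1, a ratio of 4.76 (interval 0.533 to 225.2), and that at 3898 bp had 3 and 1, a ratio of 2.86 (interval 0.229 to 149.9). The matches at 3654, 3774 and 3898 bp lie within 300 bp of each other and share tags. Each of the 5 had more CTCF-GFP than IgG tags, and 79.1% to 94.8% of all matches at p of up to 1e-04 had fewer CTCF-GFP tags. None passed the test adjusted over all 1022777 such matches with a tag, of which 2.73% passed. By the unadjusted exact binomial test, p was 0.0315 at 2173 bp and 0.00794 at 3654 bp, and 0.0710 to 0.625 at the other 3.

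The deposited peaks were called at p of up to 1e-05. In a recount with the same kind of test, a one-sided Poisson test of 300 bp in which the background is the IgG rate of the genome or of the surrounding 1, 5 or 10 kb, whichever is highest, the lowest p of any position in the control region was 1.20e-05, at 3675 bp upstream of H19, where 9 CTCF-GFP tags stood against 1.35 expected. This p, the lowest of all positions scanned, thus lay next to the threshold on the uncalled side. How often unpeaked stretches of this length reach such a p is not given here. On the H19 side of the region the lowest p was 0.000495, with 7 tags. Extended to the fragment length of 184 bp, the tags piled up to 7 at most, and 1783 deposited peaks, 5.28% of all, have a summit height of 7 or less. The same recount passed at 85.4% of the deposited summits on assembled chromosomes, each counted at its summit only. Every 35-base stretch that starts in the control region was unique in the genome, so tags could be placed along all of it.

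The 8 peaks are described next from the H19 side to the Ins2 side. Their heights, the number of overlapping tags at the summit, ranged from 9 to 17 with a median of 11, against 13 over all deposited peaks, whose heights ran from 6 to 89. Their scores, −10 times the log10 of the peak caller's p, had a median of 83.6, against 117. Since the peaks were called from these same tags, the ratios at their summits are a description and support nothing further.

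Peak 1 (chr7:149707998-149708941) lay 10250 bp upstream of Mrpl23, a gene for a mitochondrial ribosomal protein, in the space after Tnnt3, which codes for a troponin of fast skeletal muscle. Its height was 17 and its score 112.8, with 17 CTCF-GFP tags and 1 IgG tag within 150 bp of the summit. Peak 2 (chr7:149723443-149724158) was in an intron of Mrpl23, 5187 bp inside the gene, with a height of 10, a score of 79.98 and 10 CTCF-GFP tags against no IgG tag. The next summit was 72.6 kb away, the widest gap between neighbouring summits of the domain. H19 and the control region lie in this gap, at 42.2 kb from the summit below and 27.9 kb from the summit above.

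Peak 3 (chr7:149796098-149796833) lay 32.4 kb upstream of H19, outside any gene, and was the only peak between H19 and Igf2. It had a height of 10, a score of 78.19 and 11 CTCF-GFP tags against 1 IgG tag. Its motif carried 2 CpG, the most among the matches shown for the 8 peaks. Peaks 1, 2 and 5 had 1 CpG in the motif shown and peaks 4, 6, 7 and 8 had 0.

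Peaks 4 and 5 shared the 11.8 kb between the Igf2 and Ins2 genes. Peak 4 (chr7:149857853-149859350), 5397 bp upstream of the Igf2 start, was 1498 bp wide with a height of 17, a score of 234.53 and 17 CTCF-GFP tags against 2 IgG tags. Peak 5 (chr7:149861536-149862161), 9132 bp upstream of Igf2, had a height of 10 and a score of 50.87, with 10 CTCF-GFP tags and no IgG tag. Only 1.27% of the deposited peaks scored lower than peak 5, while 86.3% scored lower than peak 4. Their summits stood 3.73 kb apart, the closest in the domain, and the motifs in both pointed along the minus strand, as Igf2 and Ins2 do.

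Peaks 6, 7 and 8 lay beyond the far start of Ins2. Peak 6 (chr7:149900392-149901033) was 15340 bp upstream of it, with a height of 12, a score of 87.15 and 13 CTCF-GFP tags against 1 IgG tag. Peak 7 (chr7:149911910-149912323), 26732 bp upstream, had a height of 9, the lowest of the 8, a score of 78.9 and 13 CTCF-GFP tags against no IgG tag. Peak 8 (chr7:149922639-149924624), 1986 bp wide, had the highest score of the domain, 293.66, which exceeded that of 93.3% of all deposited peaks. Its height of 16 exceeded that of 68.9%. Within 150 bp of the summit there were 21 CTCF-GFP and 4 IgG tags, a ratio of 5.00 (interval 1.69 to 20.0), with the most IgG tags of the 8 summits. The whole peak held 67 CTCF-GFP and 10 IgG tags, a ratio of 6.38 (interval 3.26 to 13.9).

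**Figure D3:**
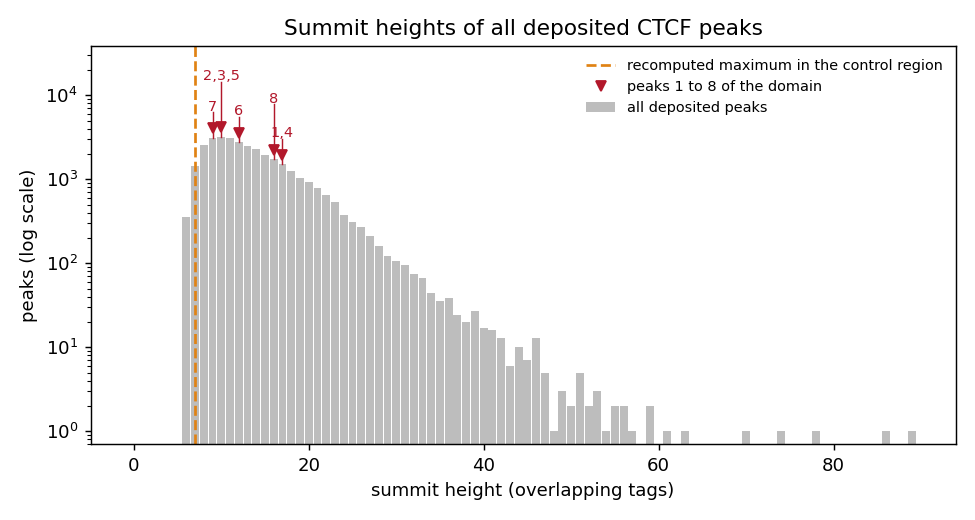
Number of deposited peaks (log scale) by summit height in overlapping tags, with triangles at the heights of the 8 peaks of the domain (9 to 17, numbered as in the text). The dashed line is the maximum recomputed in the control region, 7 tags, which lies near the low end of the deposited heights.

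Taken over the 8 summits, 112 CTCF-GFP and 9 IgG tags gave a ratio of 11.8 (interval 6.02 to 26.6), and over all deposited summits the ratio was 14.3 (interval 14.2 to 14.5). Each of the 8 passed the exact binomial test with adjusted p of 0.000397 to 0.00849, as did 94.9% of all summits. The interval of the control region, 2.42 to 27.0, overlapped that of the 8 summits, although the former covers 2501 bp and each of the latter 301 bp. A further peak (chr7:149985297-149985934, height 10, score 69.64) reaches into the domain, with its summit 64 bp past the end.

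**Figure D4:**
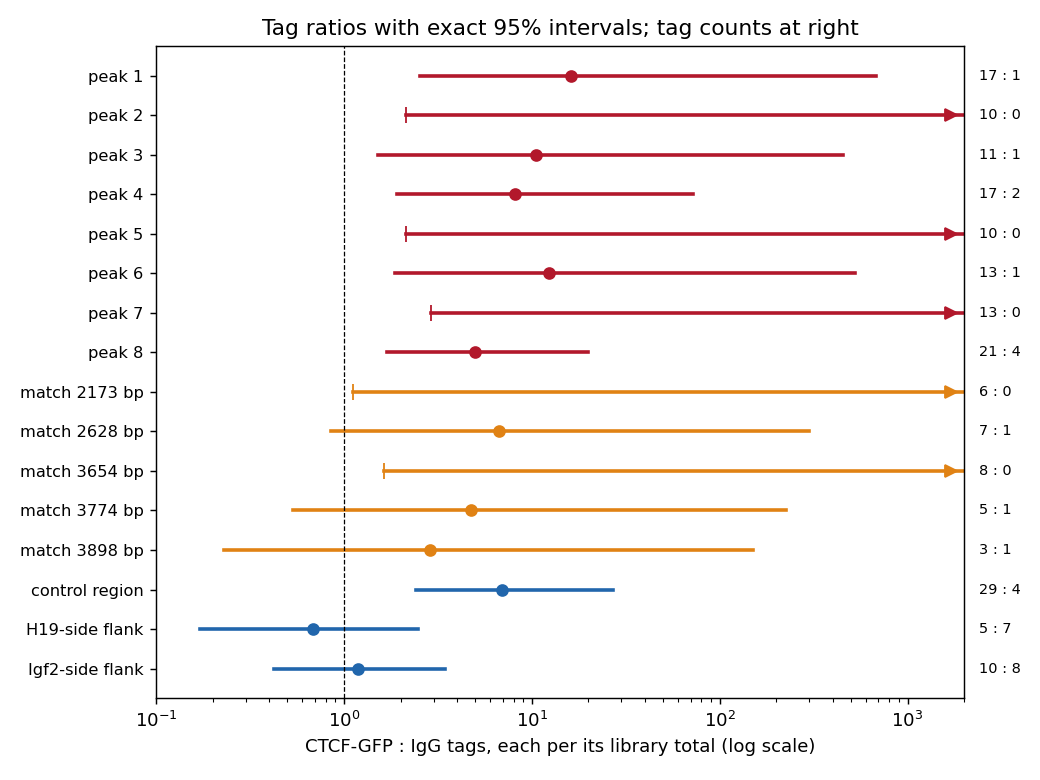
Ratio of CTCF-GFP to IgG tags, each per its library total (log scale), with exact 95% intervals for the 8 summits and the 5 control region matches, all within 150 bp, and for the control region and its 2 flanks. Arrows mark intervals without an upper end, where no IgG tag was counted, the numbers at the right are CTCF-GFP and IgG tags, and the 2 flanks lie around a ratio of 1 while the control region does not.

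The sequences of peaks 6, 7 and 8 resembled each other beyond the motif. Peaks 6 and 7, 11.4 kb apart, shared 52 of the 59 letters printed above, on opposite strands. The letters printed for peak 8 shared fewer, 42 with peak 6 and 43 with peak 7, the motif included. Peak 8 held another match on the other strand, 831 bp from the first:

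peak 8, second match: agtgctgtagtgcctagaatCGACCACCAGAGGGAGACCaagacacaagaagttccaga
match without a peak: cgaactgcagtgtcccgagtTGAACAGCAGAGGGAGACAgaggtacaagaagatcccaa

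The 2 matches of peak 8 shared 56 of 59 letters when each was read on its own strand. Over 201 bases centred on them, 144 letters (71.6%) were the same in this inverted reading, against 52 (25.9%) with both read on the same strand, and the longest shared run was 64 bases. Peak 8 thus spans an inverted pair of related sequences. Tags were counted at both members, 22 CTCF-GFP and 3 IgG tags at the first and 21 and no IgG tag at the second. The latter is 6.66-fold more at the floor of 3, with an exact interval from 4.96. A tag that lies wholly in the shared run cannot be assigned to either member. Of the 1986 tag starts in peak 8, 1863 (93.8%) were unique in the genome, the lowest share among the peaks of the domain. The share around each member is not given here.

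The match without a peak, printed in the second line, had a motif identical to that of peak 6 and lay between peaks 6 and 7 at chr7:149906830-149906848. Within 150 bp there were 5 CTCF-GFP and 2 IgG tags, a ratio of 2.38 (interval 0.390 to 25.0), where peak 6 had 13 and 1 and peak 7 had 13 and no IgG tag. Its surrounding sequence shared 47 of 59 letters with peak 6 and 45 with peak 7. Of the 301 tag starts around it, 89.4% were unique in the genome. The 1 kb bin around the match held 12 and 2 tags, and the bin before it 14 and 4, both among the bins outside peaks with the most CTCF-GFP tags. The difference in tags between the 3 sites was not tested. The 17 letters AACAGCAGAGGGAGACA, common to the 3 sites, occurred 31 times on either strand of the assembled chromosomes, 3 of them here, and 58.1% of the copies lay in a deposited peak. These letters, too, were chosen after the sites had been seen.

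Across the whole domain 55 motif matches at p of up to 1e-05 were found, 31 on the plus and 24 on the minus strand, which is 16.98 per 100 kb against 10.1 in the genome. A tag of either library lay within 150 bp of 44 of them. Of these 44, 7 passed the exact binomial test adjusted over all 204061 matches with a tag, a share of 15.9%, where 12.6% of all matches passed. The 7 lay in peaks 1, 2, 4, 6, 7 and 8, with both matches of peak 8 among them. The matches of peak 3 and peak 5 had adjusted p of 0.0502 and 0.0567, next to the threshold of 0.05. Outside the peaks there were 46 matches and none passed. The 35 of these with a tag had at most 5 CTCF-GFP tags each. Summed over them, with shared tags counted at each match, 58 CTCF-GFP and 33 IgG tags gave a ratio of 1.67 (interval 1.07 to 2.65). Because shared tags enter more than once, this interval understates the counting error. The ratio at unpeaked matches of the genome is not given here.

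Tiled in windows of 300 bp without regard to motifs, 857 windows of the domain held a tag and 2 passed the exact binomial test (0.233%), against 0.171% of 6227636 windows in the genome. The first, in peak 1, had 18 CTCF-GFP tags and no IgG tag. This is 5.71-fold more at the IgG floor used above, with an exact interval from 4.19. The second, in peak 8, had 16 and no IgG tag, 5.08-fold more at this floor, with an exact interval from 3.67. Of the 8 windows with a tag in the control region none passed, the lowest unadjusted p being 0.0158 with 7 CTCF-GFP tags and no IgG tag. By the one-sided Poisson test at 1e-05, 9 windows of the domain passed and all 9 overlapped a deposited peak, namely peaks 1 to 6 and 8. The peaks were called from the same tags with the same kind of test at this threshold, so the overlap restates the call. The share of windows in the genome that pass this Poisson test is not given here.

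At the starts of the genes no CTCF-GFP excess passed the test. Within 1 kb of the start, H19 had 1 CTCF-GFP and 3 IgG tags, Igf2 had 4 and 5, and Ins2 had 11 and 5, a ratio of 2.09 (interval 0.671 to 7.69). None of the 12 genes that overlap the domain passed the exact binomial test adjusted over 35586 genes with a tag, of which 8.14% passed, and none had an unadjusted p of up to 0.05. The lowest was that of Mrpl23, with 14 and 5 tags, a ratio of 2.67 (interval 0.907 to 9.46, exact p = 0.0651). Of the neighbours, Tnnt3 had 13 and 6 tags, Lsp1 9 and 4, Nctc1, a non-coding transcript, 7 and 3, Igf2as 5 and 2, Gm14492 4 and 3 and the pseudogene Gm7290 4 and 4. Mir675, the microRNA inside H19, had 2 and 2 tags, and Mir483, the one inside Igf2, had 7 and 3.

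H19 has 5 annotated transcript starts, Igf2 9 and Ins2 8. Those of Igf2 lay from 79.3 to 88.7 kb upstream of the H19 start and held 4 to 7 CTCF-GFP tags within 1 kb, against 0 to 9 IgG tags. Those of Ins2 fell into 7 at 101.4 to 101.6 kb, with 6 CTCF-GFP and 2 to 4 IgG tags each, and 1 at 121.4 kb. The single start at 121.4 kb is the one tested above and the one from which peaks 6 and 7 were measured. Across the gene bodies there were 3 CTCF-GFP and 3 IgG tags over H19, 35 and 30 over Igf2 and 79 and 87 over Ins2. The interval of the ratio included 1 in each, and no summit fell in any of the 3. Igf2as, the non-coding RNA antisense to Igf2, overlaps the upstream part of that gene and runs past its start, and its body holds 24 tags of each library. Tags in the overlap cannot be assigned to either gene.

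Over the whole domain 1371 CTCF-GFP and 1040 IgG tags were counted, and 16.0% of the former but 2.60% of the latter lay in peaks. Outside the peaks 1152 and 1013 tags remained, a ratio of 1.08 (interval 0.994 to 1.18, exact binomial test, two-sided, p = 0.0676), which did not pass, while 0.897 was the ratio outside peaks in the genome. The ratio depended on the scaling. With totals taken outside the peaks it was 1.21 (interval 1.11 to 1.31, exact p = 1.26e-05), and without 1 kb around each peak, at the usual totals, it was 1.00 (interval 0.919 to 1.10). By segment and outside the peaks, it was 0.898 between H19 and Igf2 with the control region included, 1.61 between Igf2 and Ins2 and 1.18 beyond Ins2, and none of 6 segments passed after adjustment (lowest adjusted exact p = 0.123). Between H19 and Igf2 without the control region and peak 3, 185 CTCF-GFP and 223 IgG tags gave a ratio of 0.790 (interval 0.646 to 0.964, exact binomial test, unadjusted p = 0.0198), below that of the genome outside peaks as a value but with 0.897 inside its interval.

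The IgG library, which gives the background, had 3.21 tags per kb in the domain and 2.90 on chromosome 7. In 32 stretches of 10 kb it held 1 to 56 tags with a median of 31. Of all 35-base stretches that start in the domain 91.2% were unique, and the longest stretch without a unique start, 6914 bp, began 196.5 kb upstream of H19, where both libraries are empty in the plot of tags across the domain.

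Other imprinted domains built by the same rule are set beside it as a description. The domain of Kcnq1, Cdkn1c, Slc22a18 and Phlda2, next to it on chromosome 7, held 19 peaks in 595 kb, or 3.19 per 100 kb, with a median height of 12. That of Dlk1, Meg3, Rtl1, Mirg and Dio3 on chromosome 12 held 14 in 1028 kb, or 1.36 per 100 kb, with a median height of 11. The H19 and Igf2 domain had 2.47 per 100 kb and the genome 1.32. The highest peak stood at 17 in the H19 and Igf2 domain, 22 in that of Kcnq1 and 21 in that of Dlk1.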

How the data were processed

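For each of 2 libraries the authors deposited 1 line per aligned tag of 35 bp with a count of 1, without normalization (mm9, aligner not given in the sources used here). For CTCF-GFP they also deposited peaks called with MACS 1.4 against IgG, whose score is −10 times log10 p, and their summits with the signal there, the pileup height in tags. Depth was 8391191 CTCF-GFP and 7988889 IgG tags, and 11.5% and 1.31% of these lay in peaks.

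From the deposited counts, the 5′ end of each tag was moved by 92 bp to the fragment centre. Libraries were scaled by their totals and compared by exact two-sided binomial tests with Benjamini-Hochberg adjustment at 0.05 over all summits, 300 bp windows, motif matches or genes of the assembled chromosomes with a tag. Ratios carry exact Clopper-Pearson intervals. Without an IgG tag the fold is given against a floor of 3 tags, and the exact interval has a lower end only. A 19-base motif matrix was made from 192 CTCF motif sequences that the authors listed at RAD21 peaks, turned to the motif's strand, with exact match p-values. The Poisson recount used an effective genome size of 1870000000, as the authors' MACS run for RAD21 did. Uniqueness of 35-base stretches was computed on the whole mm9 genome, and no tag lay past a chromosome end of it. Scripts were tested on simulated data. By rule the 3 members, each gene that overlaps the domain, each peak and each control region match are named. The members and lists were chosen with earlier results of these data known. Versions were matplotlib 3.10.9, pandas 2.3.3, scipy 1.17.1, numpy 2.4.6 and Python 3.11.15.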

Additional observations from a re-analysis of the deposited data

How the results depend on the processing

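With 1 library per antibody, no spread between replicates could be measured, and few CTCF-GFP tags stood behind single sites, 10 to 21 at the summits and 3 to 8 at the control region matches. No paired analysis was possible because each antibody had 1 library. The number of peaks fell from 8 to 3 when a score of at least 100 was required. Windows called numbered 9 in place of 2 by the one-sided Poisson test, which asks for a threshold on each window and adjusts for none. No genome share stands beside these 9. Of the motif matches 3 in place of 7 passed with the motif p limited to 1e-06, which leaves fewer matches. Within 5 kb of the gene start 1 gene passed in place of 0, Mrpl23, with 47 CTCF-GFP and 22 IgG tags (exact binomial test, adjusted p = 0.0242). This window reaches into peak 2, and the share of all genes that pass at 5 kb is not given here. The ratio outside peaks was 1.21 and passed with totals taken outside the peaks, and it was 1.08 and did not pass with all totals. The control region kept a ratio above 1 that passed the exact test with other totals (7.69), unmoved tags (5.14) and its flanks as the background (7.25). Over the whole 10 kb upstream the ratio was 1.87 and passed through the same tags, since without the control region it was 0.993. By the unadjusted exact binomial test the match at 2173 bp no longer passed in a wider window (p = 0.0710), where that at 3774 bp did (p = 0.0120), and that at 2628 bp passed with totals outside the peaks (p = 0.0341). Calls at the 8 summits held under each alternative run, and no result changed direction. The overlap rule, which gives 9 peaks, and the test against the flanks were chosen after seeing the data.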

Other observations

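Outside the peaks the 1 kb bins of the domain held a median of 3 CTCF-GFP and 3 IgG tags. Of 309 such bins, the one with the most CTCF-GFP tags, 18 against 9 IgG tags, lay 161.9 kb upstream of the H19 start, just past peak 8. A bin in an intron of Lsp1, a gene of leukocytes, held 14 and 4 tags and 1 motif match at p of up to 1e-05, and a bin in an intron of Gm14492 held 12 and 2 tags, also with 1 match. The bins at 141.9 and 142.9 kb, between peaks 6 and 7, held 14 and 4 and 12 and 2 tags, the latter with the match identical in motif to that of peak 6. The bin at 3.89 kb upstream of H19, in the control region, held 12 and 2. These bins were picked for their counts and not tested.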
